A study of Mus musculus with 19 samples.

Results

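Cyclic nucleotide phosphodiesterases (PDEs) are the enzymes that hydrolyse cAMP and cGMP, and 10 of their genes were followed here in mouse striatum: Pde10a, Pde1b, Pde1a, Pde1c, Pde2a, Pde4b, Pde4d, Pde7b, Pde8b and Pde9a. They were taken by name as a gene family from the 54232 genes counted, and all 10 passed the filter on low counts that left 18521 genes for testing. RNA was sequenced from the striatum of 6-month-old mice on a C57/BL/6 background, with 7 wild-type (WT) mice and 4 mice of each of 3 knock-in (KI) genotypes. KI-FL mice are the HD140Q line, which expresses full-length mutant HTT with an expanded polyQ repeat from the mouse Htt gene. KI-96 and KI-571 mice carry the same allele after CRISPR/Cas9 truncation, so that an N-terminal fragment of HTT with the repeat is expressed. The lines are named for the number of HTT amino acids in the fragment, to which the expanded repeat is added. KI-96 and KI-571 mice are heterozygous and keep a normal Htt allele, as the study found homozygotes not viable. The study tested motor function in heterozygous mice of all KI lines, but the zygosity of the sequenced KI-FL mice is not given in the sources used here. The mutant allele is in the germline and so in every cell type. The comparisons ask whether the mRNA of these enzymes differs between each form of mutant HTT and WT, and between the forms.

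In the striatum, dopamine and adenosine receptors on projection neurons raise or lower cAMP through adenylyl cyclase, and nitric oxide raises cGMP through soluble guanylyl cyclase. PDEs end both signals. PDE10A, a dual-substrate enzyme, and the calcium/calmodulin-activated PDE1B are known for their abundance in striatal projection neurons, the cells most affected in Huntington disease. PDE2A is a dual-substrate enzyme that cGMP stimulates, PDE4, PDE7 and PDE8 enzymes hydrolyse cAMP, and PDE9A hydrolyses cGMP.

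The sequences before the start sites of Pde10a and Pde1b are shown because these genes had the highest mRNA levels of the 10 and varied together among mice. Varying together was not particular to this pair, as given below. Each is the 250 bases before the most upstream start that RefSeq lists for the gene on GRCm38.p6 (2 starts for Pde10a and 3 for Pde1b), plus strand, 5′ to 3′, with matches to the GC box GGGCGG or its reverse complement in capitals. The Pde10a window is chr17:8801495-8801744 and the Pde1b window is chr15:103502784-103503033. By GENCODE M21, which gave the exon lengths, the Pde10a gene starts far upstream of its window, at 8525372. Its window therefore precedes an internal start of that gene model. The Pde1b window ends directly before the GENCODE start at 103503034.
Pde10a: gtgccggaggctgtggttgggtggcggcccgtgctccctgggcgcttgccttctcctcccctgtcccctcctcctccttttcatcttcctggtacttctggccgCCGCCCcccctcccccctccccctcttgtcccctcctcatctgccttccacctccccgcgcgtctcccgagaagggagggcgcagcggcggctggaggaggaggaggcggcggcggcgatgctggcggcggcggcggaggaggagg
Pde1b: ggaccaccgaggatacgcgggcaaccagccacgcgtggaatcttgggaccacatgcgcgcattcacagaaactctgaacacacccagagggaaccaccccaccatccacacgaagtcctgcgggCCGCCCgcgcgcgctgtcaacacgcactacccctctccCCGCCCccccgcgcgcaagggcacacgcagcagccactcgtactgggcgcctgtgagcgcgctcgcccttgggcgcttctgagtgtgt
GC content was 72.8% in the Pde10a window and 67.2% in the Pde1b window, against a median of 52.4% over the 32851 windows of all genes. The windows held 21 and 26 CpG dinucleotides, against a median of 6. The GC box was matched 1 time for Pde10a and 2 times for Pde1b, and 32.7% of all windows held it on either strand. Neither window held the cAMP response element core TGACG (17.8% of all windows) or the letters TATAAA (12.4%). Among the most upstream windows of the other members that were listed, GC content was lower, from 38.8% for Pde4d to 55.2% for Pde7b, and none held a GC box. Pde4b had 1 match to TGACG. The windows of Pde1c, Pde4b, Pde4d and Pde7b also lay inside their GENCODE gene models, so windows at outer and internal starts are mixed in this comparison.

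Depth was 12669809 to 26388542 reads on genes per mouse (median 18202412). Projection neuron genes were present in every mouse, with Drd1 at 161 to 314, Drd2 at 182 to 356, Adora2a at 242 to 503 and Ppp1r1b at 888 to 2234 CPM (counts scaled by library size). Htt lay at 168 to 195 CPM in WT, 143 to 240 in KI-96, 104 to 141 in KI-571 and 137 to 179 in KI-FL mice, which includes any normal allele. Some libraries stood apart. WT replicate 3 had cortical neuron markers at a summed 1115 CPM, against a WT median of 95.7. KI-FL replicate 4 had 3186 tested genes at 0, against 10 to 222 in every other mouse. KI-96 replicate 3 had 24.2% of reads outside genes, against 11.1 to 16% elsewhere. Xist was at 886 CPM or more in all 4 KI-96 mice, 1 WT and 1 KI-FL mouse and at 5.05 or less in the other 13, so that a female-typical Xist level and the KI-96 genotype can hardly be told apart. Choroid plexus markers were at a summed 5080 and 5312 CPM in KI-571 replicates 2 and 4 and 3013 in KI-FL replicate 1, and at 406 or less in every other mouse. In tissue RNA, fewer cells of a type and less RNA per cell cannot be told apart.

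Pde1b and Pde10a stood far above the other members in WT striatum. Per kilobase of exon (RPKM, the scale for comparing genes), Pde1b reached 258 ± 29.8 (SD, n = 7), from 211 to 305, and Pde10a 116 ± 21.2, from 93.9 to 155. In CPM, Pde10a ranked 38 and Pde1b 47 among all genes counted. Together they made up 78% ± 1.91 of the summed RPKM of the phosphodiesterase family in WT (76 to 81.1%), 76% ± 2.41 in KI-96, 78.7% ± 1.21 in KI-571 and 76.3% ± 2.02 in KI-FL mice (n = 4 each). The family list held 21 genes. Next came the cAMP-specific Pde7b at 19.6 ± 3.16, Pde8b at 18.9 ± 2.17 and Pde4b at 14.6 ± 1.16 RPKM. Pde1a, another calmodulin-activated enzyme, followed at 8.04 ± 3.67, Pde9a at 6.06 ± 1.13, Pde4d at 3.01 ± 0.435, Pde1c at 2.54 ± 0.434 and Pde2a at 1.53 ± 0.374.

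Of the 9 neighbouring pairs in this order, 7 differed across the 7 WT mice by a two-sided exact sign-flip permutation test, with adjusted p of 0.0352 or 0.0402 (Benjamini-Hochberg over 9 pairs). Pde1b exceeded Pde10a in 7 of 7 mice, by 1.17 ± 0.12 in log2 RPKM, and Pde10a exceeded Pde7b by 2.56 ± 0.13 in 7 of 7. Pde7b and Pde8b did not differ beyond their spread (0.04 ± 0.10, higher in 4 of 7 mice, exact p = 0.344, adjusted p = 0.344), nor did Pde1a and Pde9a (0.31 ± 0.66, 5 of 7 mice, exact p = 0.281, adjusted p = 0.316). With 7 mice the smallest exact p is 0.0156, and with 1 mouse left out between 0 and 6 pairs passed. The order depends on the length used: by the longest coding sequence Pde4b lay above Pde8b and Pde1c and Pde4d above Pde9a, while Pde1b, Pde10a and Pde7b kept places 1 to 3. The gap between Pde1b and Pde10a depends on length too. It was smaller in proportion by the longest transcript (330 and 191 RPKM) and by the longest coding sequence (866 and 582). In mean CPM, with no length, Pde10a lay above Pde1b in WT (1485 and 1390). The level of Pde2a is uncertain. Of its exon length, 64.3% is shared on the same strand with the readthrough gene Gm45837, and how reads there were counted is not given in the sources used here. If all its counts came from the unshared 2.2 kb, its level would be 4.29 ± 1.05 RPKM, in place 8. It would then lie above Pde4d (3.01) and Pde1c (2.54). That would reverse the pair of Pde1c above Pde2a (sign-flip adjusted p = 0.0402), which is among the 7 pairs that passed. Pde8b and Pde9a overlap antisense genes over 7.6% and 8.34% of their exon length, and the strand setting of the counting is not given in the sources used here.

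**Figure D1:**
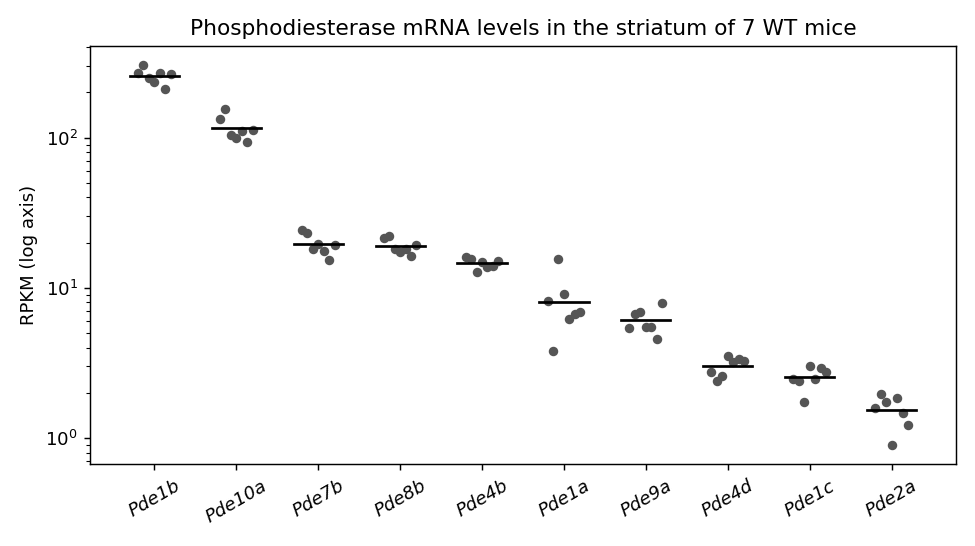
RPKM (log axis) of the 10 phosphodiesterase genes in the 7 WT mice, ordered by mean, with a point for each mouse and a bar at the mean. Pde1b (211 to 305) and Pde10a (93.9 to 155) lie above every value of the other genes, and Pde1a and Pde2a are the most scattered.

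No member passed an adjusted p of 0.05 against WT in any KI genotype (edgeR quasi-likelihood test, adjusted over 18521 genes). The smallest adjusted p was 0.703 in KI-96, 0.528 in KI-571 and 0.282 in KI-FL mice. Over all genes tested, 0.027% passed in KI-96, 0.0324% in KI-571 and 0.194% in KI-FL. At an unadjusted p under 0.05, members numbered 0 of 10 in KI-96 (7.45% of all genes), 1 in KI-571 (7.72%) and 1 in KI-FL (16.7%). No member had groups without overlap against WT, as 1.24% of all genes did in KI-96, 1.55% in KI-571, 5.28% in KI-FL and 0.0108% over all KI mice. The median log2 fold change of the 10 was 0.049 in KI-96, -0.11 in KI-571 and 0.059 in KI-FL, against -0.015, -0.0089 and -0.028 over all genes. None passed between the KI genotypes or with all 12 KI mice against WT either, where 0.0054% (KI-96 against KI-571), 0% (KI-96 against KI-FL), 0.0864% (KI-571 against KI-FL) and 0.054% (all KI against WT) of all genes passed. KI-96 differed from KI-571 or KI-FL at an unadjusted p under 0.05 for 0 members (5.51% and 8.9% of all genes) and without overlap for 0 members (2.85% and 3.16%). DESeq2 called 0 members too in each of the 7 comparisons. The comparisons with WT share the same 7 control mice, so a shift of those mice moves all of them.

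**Figure D2:**
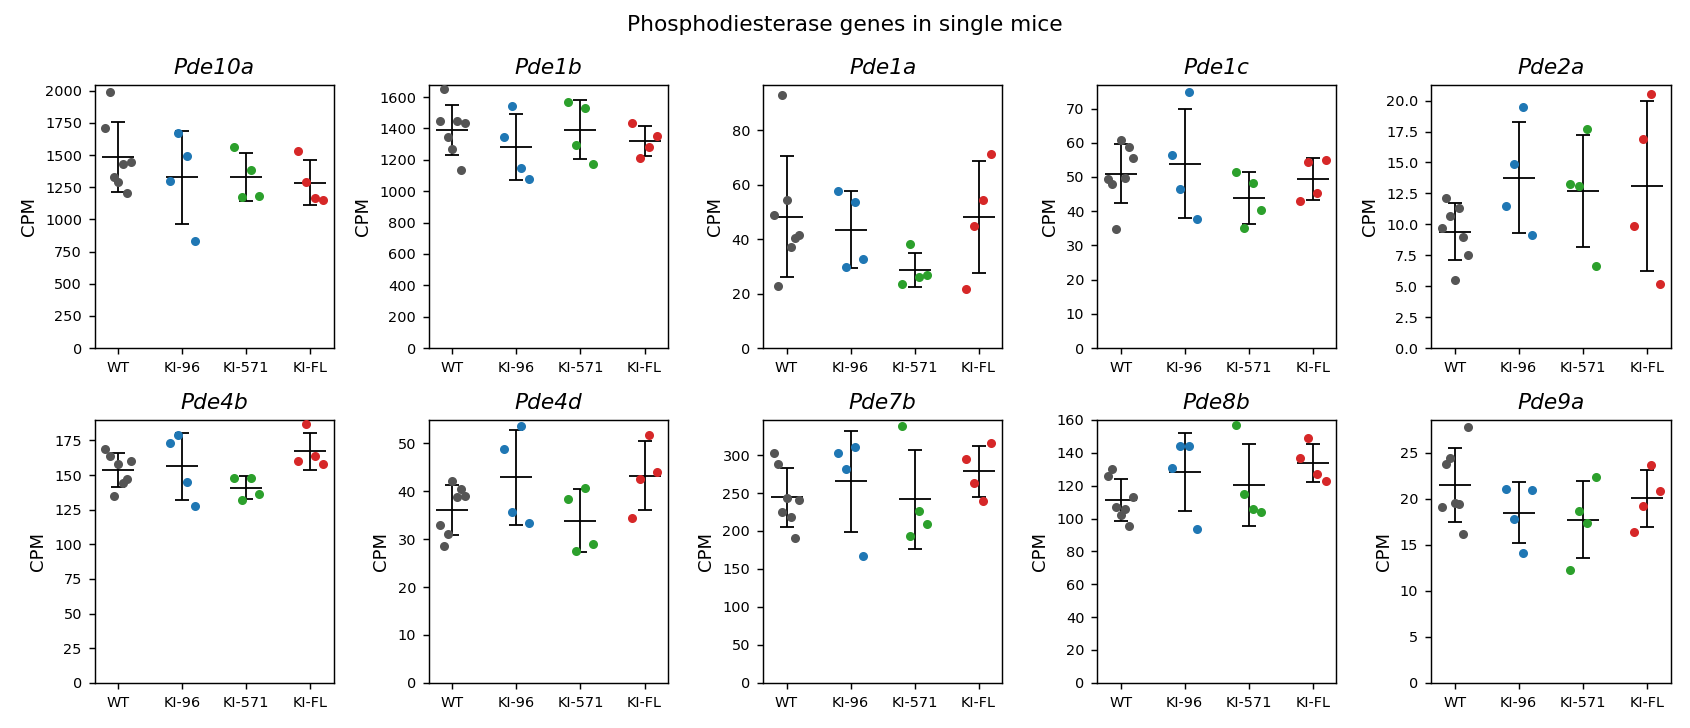
CPM of each member in single mice by genotype (7 WT, 4 of each KI genotype), each panel on its own linear axis from 0; points are mice and bars the mean ± SD. The KI groups overlap WT for every gene, and Pde1a and Pde2a are the most scattered within most genotypes.

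Pde10a had the same direction in all 3 KI genotypes without passing the test. WT mice ranged from 1207 to 1987 CPM with a median of 1428. KI-96 mice had 1297, 1675, 1496 and 834 CPM, KI-571 mice 1566, 1175, 1381 and 1183, and KI-FL mice 1529, 1287, 1168 and 1152. The groups overlapped, and KI-96 replicate 4 had the lowest value of all mice. The log2 fold change was -0.16 ± 0.16 (SE) in KI-96, -0.16 ± 0.16 in KI-571 and -0.21 ± 0.16 in KI-FL (edgeR adjusted p = 0.862, 0.933 and 0.528). The 95% confidence interval in KI-FL ran from -0.55 to 0.13, a fold of 0.682 to 1.1. The value in KI-96 was near 0 (0.0025) without replicate 4. WT replicate 2 was the highest mouse, and without it the log2 fold changes were -0.081 in KI-96, -0.08 in KI-571 and -0.13 in KI-FL. Against WT replicates 1 to 4 alone they were -0.25 in KI-96, -0.25 in KI-571 and -0.31 in KI-FL. Against WT replicates 5 to 7 alone they were -0.039, -0.038 and -0.084, so the size depended on the WT mice used.

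The calmodulin-activated PDE1 genes differed in how much they varied. Pde1b ranged from 1138 to 1648 CPM in WT with a median of 1435. KI-96 mice had 1348, 1543, 1149 and 1075 CPM, KI-571 mice 1568, 1295, 1530 and 1176, and KI-FL mice 1435, 1212, 1280 and 1354. All groups overlapped, with log2 fold changes of -0.12 ± 0.12, 0.0026 ± 0.12 and -0.074 ± 0.12 (edgeR adjusted p = 0.862, 0.998 and 0.777) and intervals that stayed between -0.37 and 0.25. Pde1a was the most variable of the 3 in WT, from 22.9 to 93.1 CPM with a median of 41.5, and the highest value was WT replicate 3, the mouse with high cortical markers. KI-571 mice had 23.7, 38.1, 26.2 and 26.8 CPM, within the lower part of the WT range. Pde1a differed by -0.75 ± 0.31 in KI-571 (95% interval -1.39 to -0.11, unadjusted p = 0.0238, edgeR adjusted p = 0.528), and by -0.51 without WT replicate 3. It differed by -0.75 between KI-571 and KI-FL as well (unadjusted p = 0.0397, as for 2 of 10 members and 8.9% of all genes in that comparison, edgeR adjusted p = 0.538), where KI-FL mice had 21.8, 44.9, 54.5 and 71.3 CPM, and by -0.50 there without KI-FL replicate 4. Summed choroid plexus markers were 198, 5080, 45.1 and 5312 CPM in the KI-571 mice, against 44.2 to 406 in WT and 36.6 to 3013 in KI-FL. Summed blood markers were 163 to 483 CPM in KI-571, against 79.5 to 214 in WT and 43.5 to 103 in KI-FL. Their part in the differences of KI-571 mice, here and for Pde4b and Pde4d, was not tested. Pde1c, which acts on both nucleotides, lay at 34.9 to 60.9 CPM in WT and 35.1 to 74.9 in KI mice, with log2 fold changes of 0.077 in KI-96, -0.22 in KI-571 and -0.049 in KI-FL.

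Pde2a had the largest positive differences of the 10 on the lowest counts, 80 to 405 per mouse. WT mice ranged from 5.5 to 12.1 CPM with a median of 9.69. KI-96 mice had 11.5, 14.9, 19.5 and 9.14 CPM, KI-571 mice 13.3, 13.1, 17.7 and 6.66, and KI-FL mice 9.89, 16.9, 20.5 and 5.22. Each KI group reached above the WT range and overlapped it. With all KI mice against WT the log2 fold change was 0.49 ± 0.23 (95% interval 0.00 to 0.97, unadjusted p = 0.0483, edgeR adjusted p = 0.386), and 12.9% of all genes had an unadjusted p under 0.05 there. Pde9a, the cGMP-specific enzyme, pointed down in each genotype, by -0.21 ± 0.17, -0.28 ± 0.17 and -0.097 ± 0.17, with WT at 16.2 to 27.8 CPM and KI at 12.3 to 23.7, and none of these passed.

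The cAMP-specific members differed little. Pde4b, a target of rolipram-type inhibitors, ranged from 135 to 169 CPM in WT (median 158). KI-571 mice had 148, 132, 148 and 136 CPM and KI-FL mice 160, 187, 164 and 158, so that all 4 KI-571 mice lay below all 4 KI-FL mice. That difference was -0.25 ± 0.11 (95% interval -0.47 to -0.03, unadjusted p = 0.0301, edgeR adjusted p = 0.507). Groups of 4 without overlap were found for 4.32% of all genes in this comparison, and Pde4b was 1 member of 10. Pde4d ran parallel, at -0.35 ± 0.17 between KI-571 and KI-FL (unadjusted p = 0.0527, edgeR adjusted p = 0.573), with 38.3, 27.5, 40.7 and 29 CPM against 34.3, 42.6, 51.8 and 44.1, which overlap.

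Pde7b and Pde8b had means above WT in KI-96 and KI-FL mice. Pde8b ranged from 95.5 to 130 CPM in WT (median 107) and was 137, 149, 127 and 123 CPM in KI-FL mice, which reach from the upper part of the WT range to above it. Its log2 fold change in KI-FL was 0.27 ± 0.12 (95% interval 0.01 to 0.53, unadjusted p = 0.0431, edgeR adjusted p = 0.282), the smallest adjusted p of any member against WT. In KI-96 it was 0.20 ± 0.13 and in KI-571 0.12 ± 0.13. Pde7b had 303, 281, 310 and 167 CPM in KI-96 mice and 295, 263, 240 and 316 in KI-FL mice, against 191 to 303 in WT (median 241), with log2 fold changes of 0.12 ± 0.17 and 0.19 ± 0.16.

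**Figure D3:**
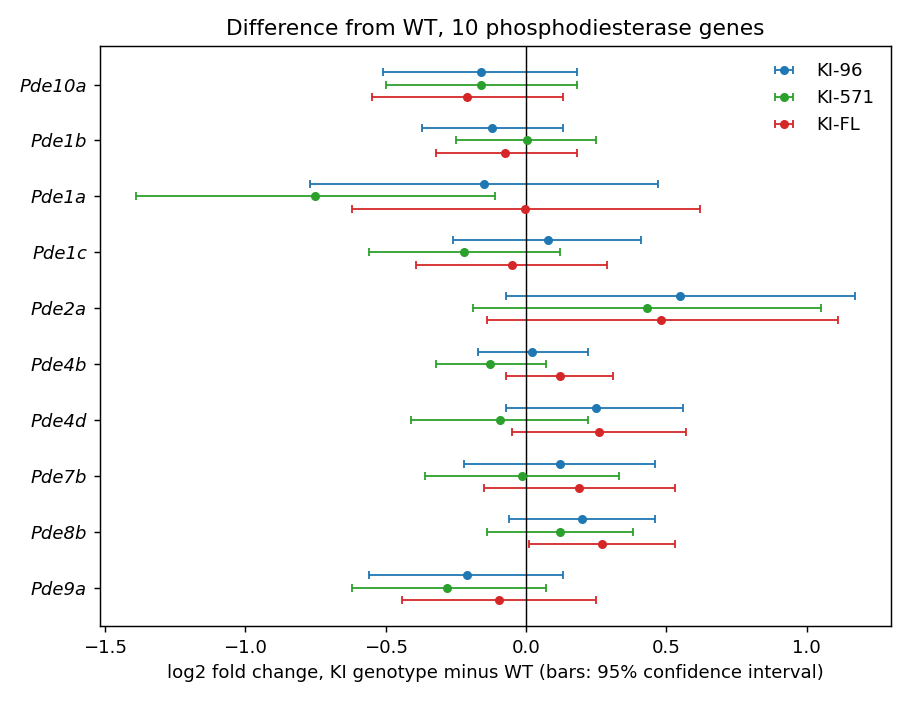
Log2 fold change of each member in each KI genotype against WT, with 95% confidence intervals from edgeR. Intervals leave out 0 for Pde1a in KI-571 (-1.39 to -0.11) and Pde8b in KI-FL (0.01 to 0.53), and neither passes after adjustment over all genes; Pde1a and Pde2a have the widest intervals.

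As tissue pieces can hold unequal amounts of projection neuron RNA, Pde10a and Pde1b were also expressed relative to 12 projection neuron markers, among them the receptor genes Drd1, Drd2 and Adora2a and the signalling gene Ppp1r1b, as log2 CPM minus the mean log2 CPM of the markers in the same mouse. On this scale Pde10a in WT was 2.13 ± 0.10 (n = 7), from 2.0 to 2.29 with a median of 2.09. KI-FL mice had 1.99, 1.88, 1.80 and 1.74, all below all WT mice. The difference was -0.28 (two-sided exact permutation p = 0.00303, the smallest that 330 splits allow, adjusted p = 0.0182 over 6 tests). On this same scale, 2.36% of 18509 genes had every KI-FL mouse below every WT mouse and 13.1% were lower with an exact p under 0.05, so that such a difference was common in KI-FL. In KI-571 mice the values were 2.08, 1.91, 1.91 and 1.90, which overlap WT, with a difference of -0.18 (exact p = 0.0242, adjusted p = 0.0485), where the call was lost without any of WT replicates 1 to 6 or KI-571 replicates 2 to 4 (adjusted p = 0.0571 to 0.117). In KI-571, 0.34% of genes had every KI-571 mouse below every WT mouse and 2.49% were lower with an exact p under 0.05. KI-96 mice were scattered at 1.88, 2.06, 2.64 and 1.55, with a difference of -0.097 (exact p = 0.576, adjusted p = 0.685), where the same shares of genes were 0.0972% and 1.12%. The part of the choroid plexus and blood markers of KI-571 mice in that result was not tested. The high value in KI-96 was replicate 3, and without it the difference was -0.3 (adjusted p = 0.0333), while without replicate 4, the lowest, it was 0.0642 (adjusted p = 0.85). In absolute level the same Pde10a comparisons did not pass, as given above.

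Pde1b relative to the markers was 2.04 ± 0.07 in WT, from 1.97 to 2.18 with a median of 2.03. KI-FL mice had 1.90, 1.79, 1.93 and 1.98, which touch the WT range, with a difference of -0.15 (exact p = 0.00909, adjusted p = 0.0273). KI-571 (2.09, 2.05, 2.05 and 1.89) and KI-96 (1.94, 1.94, 2.26 and 1.92) differed by -0.024 and -0.031 (exact p = 0.63 and 0.685, adjusted p = 0.685 for both). The mean marker score was 8.39 ± 0.19 in WT and 8.47 ± 0.09 in KI-FL, and 8 of the 12 markers had higher fitted levels in KI-FL, none of them called. With WT replicates 1 to 4 alone the KI-FL differences were -0.34 for Pde10a (adjusted p = 0.0857) and -0.165 for Pde1b (adjusted p = 0.114), and Pde10a in KI-571 was -0.24 (adjusted p = 0.0857). The 70 splits of 4 mice against 4 allow an exact p of 0.0286 at best before adjustment, so these p-values say nothing about stability. With Drd1, Drd2, Adora2a and Ppp1r1b alone as markers, Pde1b in KI-FL did not pass (-0.151, adjusted p = 0.0727). With any of KI-FL replicates 1, 2 or 3 left out the Pde10a value was -0.325 to -0.261, at an adjusted p of 0.05, which did not pass. The KI-FL mice kept in these fits still lay below every WT mouse. With fewer splits a smaller adjusted p was hardly possible, so this loss says nothing about stability. The Pde1b call in KI-FL was lost without WT replicate 2 or 4 or KI-FL replicate 1, 2 or 3 (adjusted p = 0.05 to 0.0833).

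**Figure D4:**
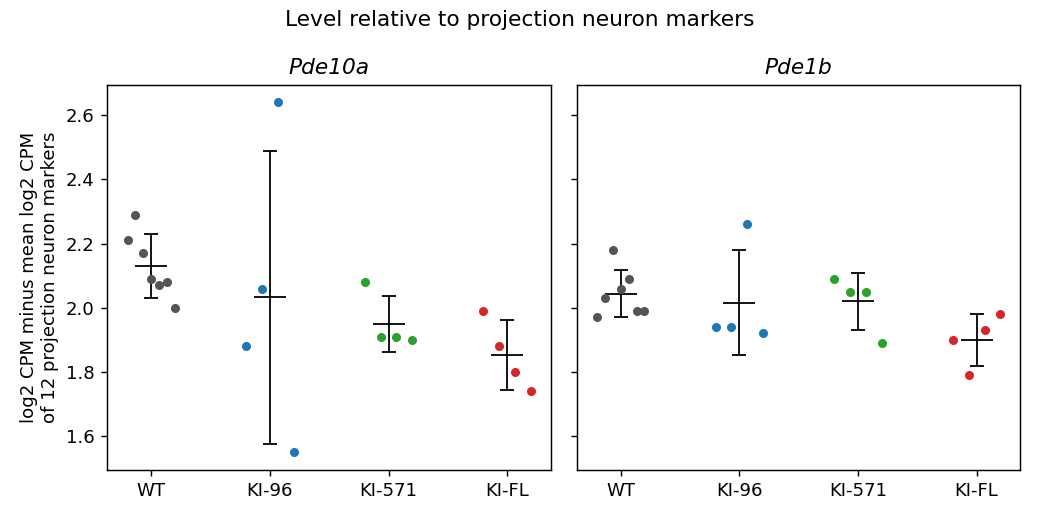
Pde10a and Pde1b in single mice as log2 CPM minus the mean log2 CPM of 12 projection neuron markers, with the mean ± SD of each genotype (7 WT, 4 of each KI genotype). For Pde10a the 4 KI-FL mice (1.74 to 1.99) lie below the 7 WT mice (2.0 to 2.29), while KI-96 mice range from 1.55 to 2.64.

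Members also varied together from mouse to mouse. Over the 19 mice, 45 pairs were correlated in log2 CPM, with permutation p-values adjusted over the 45. Pde7b and Pde8b had r = 0.834 (Spearman's rho 0.774, permutation p = 1e-05 and 0.00014, adjusted p = 0.00045 and 0.0063; r = 0.76 without the 2 farthest mice; r = 0.848 within genotypes). Pde10a and Pde1b had r = 0.774 (rho 0.726, permutation p = 7e-05 and 0.00064, adjusted p = 0.00157 and 0.0135; r = 0.618 without the 2 farthest; 0.782 within genotypes). Pde1c and Pde4d had r = 0.741 (rho 0.718, permutation p = 0.00029 and 0.0009, adjusted p = 0.00435 and 0.0135; 0.593 and 0.783). The smallest p that 100000 permutations can give is 1e-05. Within genotypes Pde10a followed Pde8b (r = 0.869) and Pde7b (r = 0.811) more closely than it followed Pde1b. Over all mice r of Pde10a was 0.561 with Pde8b (permutation adjusted p = 0.0707) and 0.661 with Pde7b (permutation adjusted p = 0.0205). Neither of these pairs passed by rho (permutation adjusted p = 0.153 for both).

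Of 20 relations of members with marker scores, Pde1b followed the projection neuron score with r = 0.828 (rho 0.874, permutation p = 1e-05 for both, adjusted p = 0.0002 for both; r = 0.808 without the 2 farthest; 0.863 within genotypes). For Pde10a r was 0.551 (rho 0.656, permutation p = 0.0154 and 0.00294, adjusted p = 0.0614 and 0.0147; 0.756 and 0.616). Pde1c went opposite to the cortical neuron score, with r = -0.743 (rho -0.788, permutation p = 0.00024 and 0.00013, adjusted p = 0.0024 and 0.0013; -0.557 and -0.746). Pde4b followed the projection neuron score with r = 0.605 (rho 0.674, permutation p = 0.00616 and 0.00184, adjusted p = 0.0319 and 0.0123; 0.588 and 0.705). Pde4d went opposite to the cortical neuron score with r = -0.586 (rho -0.618, permutation p = 0.00638 and 0.00599, adjusted p = 0.0319 and 0.024; -0.445 and -0.502). The points share library, depth and dissection, and WT replicate 3 is farthest out on the cortical score.

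By the rule for likeness, the 5 genes whose log2 CPM followed Pde10a most closely within genotypes over the 19 mice were Atp2b1 (r = 0.957), Celf1 (0.946), Tle4 (0.937), Srgap1 (0.924) and Nedd4l (0.923). For Pde1b they were Kcnj4 (0.919), Syndig1l (0.908), Cpne5 (0.902), Cacna2d3 (0.893) and Drd2 (0.884). The median r over all genes was 0.00288 for Pde10a and -0.0238 for Pde1b. These lists were the highest of 18521 genes and are given as a description.

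Outside the 10, one phosphodiesterase gene stood apart. Pde8a, the close relative of Pde8b that also hydrolyses cAMP, was lower in every KI mouse than in every WT mouse. WT mice ranged from 43.3 to 57 CPM with a median of 45.5. KI-96 mice had 37.5, 37.4, 37.3 and 39.8 CPM, KI-571 mice 38.9, 32.8, 42.4 and 39.8, and KI-FL mice 30, 29.8, 33.4 and 39. No group overlapped WT. Every KI mouse lay below every WT mouse for 1 of 18521 genes (0.0054%), which is Pde8a. It fell by 0.53 ± 0.10 in log2 fold change in KI-FL mice, to a fold of 0.695 (95% interval 0.599 to 0.805, edgeR adjusted p = 0.0435), and was the 1 of 18 tested family genes to pass against WT. The log2 fold change was -0.32 ± 0.10 in KI-96 (unadjusted p = 0.00437, edgeR adjusted p = 0.564), -0.30 ± 0.10 in KI-571 (unadjusted p = 0.00646, edgeR adjusted p = 0.347) and -0.38 ± 0.08 with all KI mice (unadjusted p = 4.31e-05, edgeR adjusted p = 0.0558). Between the KI genotypes none of its differences passed (largest 0.22 ± 0.11, KI-571 against KI-FL, edgeR adjusted p = 0.588). The call in KI-FL lay near the threshold. Adjusted p was 0.000453 by DESeq2, but 0.428 with WT replicates 1 to 4 alone, 0.0778 with WT replicates 5 to 7 alone and 0.0822 with Xist as a covariate, and it was above 0.05 when any of WT replicates 1, 4, 5, 6 or 7, KI-96 replicates 1 or 2, KI-571 replicate 3 or KI-FL replicates 1, 2 or 3 was left out (0.0501 to 0.0939). The log2 fold change stayed between -0.64 and -0.48 under all alternatives run. With Xist as a covariate the KI-96 value was -0.19.

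Markers of oligodendrocytes, astrocytes and striatal interneurons had lower medians in the same KI-FL mice. All 7 listed markers had fitted values below WT in KI-FL mice, none of them called, and summed to 9818 to 11386 CPM there against 10449 to 14842 in WT, 8519 to 13788 in KI-96 and 10331 to 14587 in KI-571. Astrocyte markers summed to 2863 to 3288 CPM in KI-FL against 3071 to 3797 in WT, with 5 of 6 below WT, and striatal interneuron markers to 200 to 330 against 274 to 419, with 5 of 6 below WT. The interneuron median of 371 CPM in WT was above those of all KI genotypes (279 in KI-96, 320 in KI-571, 294 in KI-FL). The astrocyte median of 3303 CPM in WT was below those of KI-96 (3794) and KI-571 (3592). No marker of these lists was at 0 in any mouse. Their part in the Pde8a result was not tested.

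**Figure D5:**
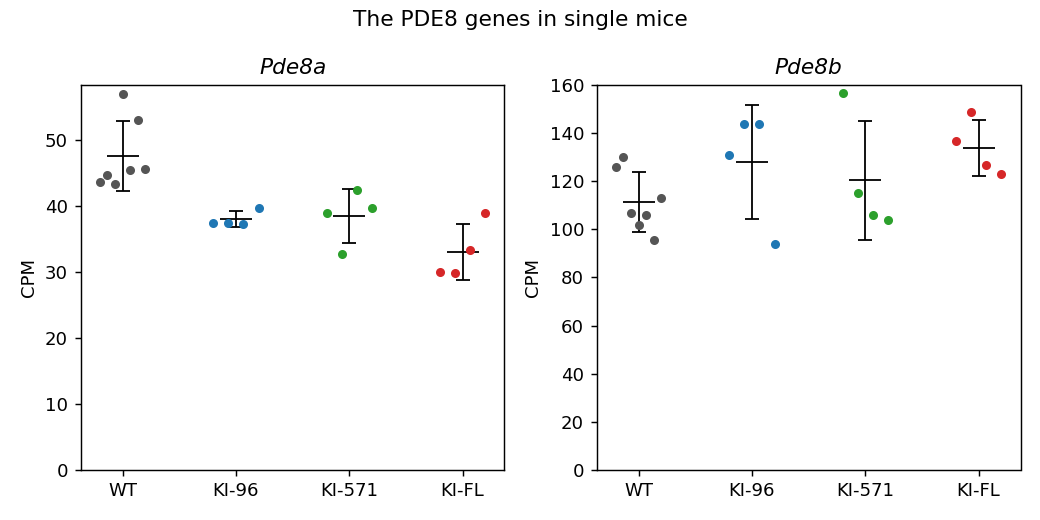
CPM of Pde8a and Pde8b in single mice by genotype, on linear axes from 0, with the mean ± SD. All KI mice (29.8 to 42.4) lie below all WT mice (43.3 to 57) for Pde8a, and the groups overlap for Pde8b.

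The other family genes gave little beyond this. Of the 11 outside the members 8 were tested, and Pde6a, Pde6b and Pde6c, the photoreceptor enzymes, had too few counts. Pde4a, cAMP-specific, had a log2 fold change of -0.22 ± 0.10 in KI-FL (edgeR adjusted p = 0.294), with 58.6 to 81.8 CPM against 73.7 to 98.3 in WT. Pde7a had -0.40 ± 0.11 in KI-FL (edgeR adjusted p = 0.095; 0.0187 by DESeq2), with 18.7 to 27.3 CPM against 25.9 to 33.5 in WT. The median over the 8 was -0.16 in KI-FL, against -0.028 over all genes.

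The rest of the cyclic nucleotide pathway was followed with 36 genes for adenylyl and guanylyl cyclases, G proteins, protein kinases A and G, calmodulins and cyclic nucleotide effectors, of which 34 were tested. None passed in any comparison by edgeR, in either direction. At an unadjusted p under 0.05, 2 were higher and 1 lower in KI-96, 3 were lower in KI-571, and 1 was higher and 2 lower in KI-FL, of 34 genes in each, against 7.45%, 7.72% and 16.7% of all genes. By DESeq2 1 gene passed, Rapgef4, which encodes the cAMP-activated exchange factor Epac and is named here after its values were seen. Its level was 401 to 500 CPM in KI-FL mice against 513 to 591 in WT and 541 to 703 in KI-571, with a log2 fold change against WT of -0.28 ± 0.10 in KI-FL (edgeR adjusted p = 0.167; 0.0448 by DESeq2) and 0.11 ± 0.10 in KI-571 (edgeR adjusted p = 0.903). KI-571 exceeded KI-FL by 0.39 ± 0.11 (edgeR adjusted p = 0.303; 0.0194 by DESeq2). The median log2 fold change was 0.069 in KI-96, -0.071 in KI-571 and 0.075 in KI-FL. The 2 smallest p-values with all KI mice against WT belonged to Calm3, a calmodulin gene, at 0.28 ± 0.11 (edgeR adjusted p = 0.318), and Gnal, for a G protein subunit that couples striatal dopamine D1 receptors to adenylyl cyclase, at 0.23 ± 0.10 (edgeR adjusted p = 0.344). Both overlapped WT, with Calm3 at 1215 to 1789 CPM in KI and 979 to 1822 in WT mice, and Gnal at 532 to 854 and 536 to 760.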

How the data were processed

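RNA sequencing of the striatum of 19 mice was used, with genotype and replicate number from the labels. The labels give neither sex nor batch, and the WT sample that the study removed is not named, so all 7 WT mice were kept, and the sacrifice batch that the study's own model adjusted for could not be fitted. The deposited values are unnormalized counts of reads on each gene, made by the authors after trimming with BBduk, alignment to GRCm38 with STAR and counting with HTSeq. Versions, annotation and strand setting are not given in the sources used here. The table's 4 columns of other samples and the 5 summary lines of HTSeq were not used. Of 54232 gene identifiers 54079 were matched to names and 54165 to GENCODE M21, which gave exon lengths. Not every gene of the marker lists is reported here by name.

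Genes were filtered with filterByExpr (minimum count 10, minimum total 15), scaled by TMM and fitted with edgeR 4.0.16 in R 4.3.3, all 19 mice in one model with a coefficient per genotype. Quasi-likelihood tests were adjusted by Benjamini-Hochberg over the 18521 genes tested, with a threshold of 0.05. Log2 CPM used a prior count of 2. RPKM divided CPM by the union of a gene's exons. Depth was 12669809 to 26388542 reads per mouse, and the biological coefficient of variation was 0.24. Levels in WT, levels relative to projection neuron markers and correlations were tested by exact or 100000-fold permutation with scipy 1.17.1. The study states that littermates were assigned to groups at random, but the labels do not tie mice to litters, so p-values measure the spread between these mice.

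The 10 members and the gene and marker lists were chosen with earlier results of these data known. Genes named were the members, the 3 other family genes with the highest WT RPKM, any listed family or pathway gene that passed, otherwise the 2 pathway genes with the smallest p over all KI mice, and the 5 genes most like Pde10a and Pde1b. Promoter windows are from RefSeq (GRCm38.p6), and 9 of the 10 members were matched. The tests were checked on simulated counts. Alternatives were DESeq2 1.42.0, its size factors, other filters, the compared groups alone, WT replicates 1 to 4 or 5 to 7 alone, Xist as a covariate, the replicate number as a block, a threshold of 0.1, other lengths, other marker sets and each mouse left out. Leaving out WT replicate 3 with KI-FL replicate 4, and Pde2a over its unshared exons, were chosen after seeing the data.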

Additional observations from a re-analysis of the deposited data

Results flagged for a closer look

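Among 88 groups of 4 to 7 mice in which members, the 3 other family genes named and marker scores were searched for a mouse far from the rest, 3 were found, and chance gives about 4. Pde7b in KI-96 replicate 4 was 7.39 in log2 CPM, below the 8.14 to 8.28 of the other 3 KI-96 mice. That mouse also had the lowest Pde10a, Pde1b, Pde1c, Pde2a, Pde4b, Pde4d and Pde8b of the KI-96 group, but not the lowest Pde1a or Pde9a. Pde8a in KI-96 replicate 4 was 5.32 in log2 CPM, above the 5.23 of the others, and it stayed below every WT mouse. The cortical neuron score of WT replicate 3 was 5.48, above the 1.21 to 2.86 of the other WT mice, and the same mouse had the highest Pde1a and the lowest Pde1c of the WT group.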

How the results depend on the processing

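No member was called under any alternative in any of the 7 comparisons, where the smallest adjusted p was 0.136, also with each mouse left out (0 to 0 calls in each comparison). Of 36 member fold changes 11 changed direction under a listed alternative. In KI-96 against WT, Pde1a was 0.13 with WT replicates 5 to 7 alone and 0.091 without WT replicate 3 and KI-FL replicate 4; Pde1c -0.022 with WT 5 to 7; Pde4b -0.0041 with WT 1 to 4, -0.10 with Xist as a covariate, -0.0092 with the replicate block and -0.0089 without the 2 mice; and Pde7b -0.0063 with the block. In KI-571 against WT, Pde1b was -0.013 without a filter, -0.035 with WT 1 to 4, -0.0024 with Xist, -0.035 with the block and -0.0092 without the 2 mice; Pde4d was 0.0095 with WT 1 to 4; and Pde7b 0.16 with WT 5 to 7. In KI-FL against WT, Pde1a was 0.28 with WT 5 to 7, and Pde1c 0.023 with WT 1 to 4 and 0.032 with the block. The cause was not tested. With 1 mouse left out, ranges that crossed 0 were, in KI-96, Pde10a -0.30 to 0.0025, Pde1a -0.31 to 0.089, Pde1c -0.13 to 0.22 and Pde4b -0.052 to 0.10; in KI-571, Pde1b -0.063 to 0.075, Pde7b -0.22 to 0.078 and Pde8b -0.038 to 0.18; and in KI-FL, Pde1a -0.25 to 0.23. Relative to projection neuron markers, leaving out a mouse gave Pde10a -0.3 to 0.0642 in KI-96, -0.224 to -0.152 in KI-571 (9 of 11 fits did not pass) and -0.325 to -0.243 in KI-FL, and Pde1b -0.114 to 0.00155, -0.0454 to 0.0187 and -0.174 to -0.112; the 3 that passed with all mice were -0.24, -0.34 and -0.165 with WT 1 to 4 alone, where 4 mice against 4 could hardly pass, and Pde1b did not pass in KI-FL with 4 markers (-0.151). WT 5 to 7 alone were not tested on the scale relative to markers, where their Pde10a values lay below those of WT 1 to 4. Of the pairs in the WT order, 0 to 6 passed with a mouse left out, since 6 mice allow an exact p of 0.0312 at best.

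Same-numbered mice deviated together with r of -0.128 to 0.29 and above 0.1 in 5 of 24 pairs. Such values cannot tell whether mice of the same number shared a litter or batch, so any pairing by number is unknown. With the replicate block 0 members were called in each comparison and the Pde8a call in KI-FL was lost (-0.51, edgeR adjusted p = 0.32). Calls over all genes depended on the tool: DESeq2 called 28, 115 and 509 genes against WT in KI-96, in KI-571 and in KI-FL and 285 with all KI mice, against 5, 6, 36 and 10 by edgeR. They depended on the mice as well: edgeR called 0 genes in KI-FL without WT replicate 1, 5, 6 or 7 or KI-FL replicate 2 (2411 to 3262 at an unadjusted p under 0.05), 159 without KI-96 replicate 3, and 336 with the compared groups alone. Pde2a had the lowest counts of the members, 80 to 405 per mouse.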
